A study of Homo sapiens with 8 samples.

Results

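Collagens were read from RNA sequencing of hTERT-RPE1, a cell line from human retinal pigment epithelium that telomerase has made immortal. Every gene symbol made of COL, a number, A and a number was taken, which gave 44 collagen genes of the 57884 genes listed in each of 2 expression tables. By the polymer their chains build, 11 of them are fibrillar, 6 are type IV chains of basement membranes and 27 belong to other classes. Of the 44 genes, 26 reached 1 FPKM in at least 2 libraries and were tested among 17994 genes, and the other 18 stayed below 1 FPKM in every library. FPKM is the number of fragments per unit of transcript length and of mapped fragments, so it allows levels to be set side by side between genes.

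The 4 groups were cells labelled ATF3 knockout in serine/glycine-free medium, cells labelled ATF3 knockout in complete medium, wild-type cells in serine/glycine-free medium and wild-type cells in complete medium. ATF3 is a stress-induced transcription factor. Deprived cells spent 8 h without serine and glycine after 2 days in complete medium. The libraries in complete medium are labelled as the start of those 8 h. Every difference between the media is thus also a difference in time and handling, and these cannot be told apart. Each group has 1 library in each of 2 independent experiments, called batches in the labels, so 8 libraries in all. Whether the cells labelled knockout were 1 clone, and how the gene was disrupted, was not stated in the labels.

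Collagens are secreted proteins in which 3 chains wind into a triple helix built from Gly-X-Y repeats, and the cell can make glycine from serine. Prolines and lysines of the new chains are hydroxylated in the endoplasmic reticulum, the helix is held by the chaperone HSP47, and trimming and cross-linking follow outside the cell. Fibrillar collagens form the cables of connective tissue, type IV collagen forms the sheet of a basement membrane, and type VI collagen forms beaded filaments that link cells, fibrils and basement membranes. In the eye, the retinal pigment epithelium rests on a basement membrane that faces the collagen layers of Bruch's membrane.

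The batches stood apart before any collagen was considered. Across genes, r was 0.921 to 0.957 between libraries of 1 batch and 0.768 to 0.815 between the batches, with the tables normalized separately and sequencing depth unknown from FPKM. ATF3 mRNA was present in all 4 libraries labelled knockout, at 57.3 and 20.8 FPKM in serine/glycine-free and complete medium of batch 2, against 18.0 and 3.65 FPKM in wild-type cells in the same media, so the mRNA gives no check of the genotype label. In batch 1 its values were 4.45 and 3.38 FPKM in cells labelled knockout and 6.46 and 3.47 FPKM in wild-type cells. Markers of the pigment epithelium were sparse: OTX2 was listed at 0 in every library and RPE65 stayed below 1 FPKM, and 2 of 10 listed markers reached the level for testing.

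Epithelial and mesenchymal markers differed between the genotype labels in batch 2. The summed level of 7 epithelial markers was 677 and 823 FPKM in cells labelled knockout of batch 2 in serine/glycine-free and complete medium, against 146 and 254 FPKM in wild-type cells. For 7 mesenchymal markers the sums were 155 and 178 FPKM in those cells labelled knockout and 732 and 678 FPKM in wild-type cells. Most of these sums was VIM, at 102 and 118 FPKM in cells labelled knockout and 638 and 598 FPKM in wild-type cells. PDGFRB and THY1 stayed below 1 FPKM in batch 2, and the groups overlapped in S100A4. E-cadherin, encoded by CDH1 and a defining epithelial marker, had 56.2 and 60.0 FPKM in cells labelled knockout of batch 2 and 1.23 and 0.541 FPKM in wild-type cells. In batch 1 the epithelial sums were 233 and 222 FPKM in cells labelled knockout and 316 and 358 FPKM in wild-type cells. They were mostly KRT8 and KRT18, while CDH1, ESRP1 and CLDN7 did not exceed 2.09 FPKM there. The mesenchymal sums of batch 1 were 1374 and 1174 FPKM in cells labelled knockout and 975 and 943 FPKM in wild-type cells. In batch 2, 6 of the 7 epithelial markers rose and 3 of the 7 mesenchymal markers fell in cells labelled knockout by the test used for collagens, where 5.07% of all genes tested rose and 5.08% fell. The 3 listed endothelial markers summed to at most 1.52 FPKM in any library, and of 3 immune markers PTPRC and CD14 stayed below 1 FPKM while the list, mostly CD68, summed to 10.3 to 15.5 FPKM in batch 2 and 1.73 to 4.74 FPKM in batch 1. The part of these markers in the collagen results was not tested, and in such bulk samples fewer cells of a type and less RNA per cell cannot be told apart.

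Type VI collagen held the largest share of collagen mRNA in all 4 libraries of batch 2, and in batch 1 type IV stood above it in wild-type cells in serine/glycine-free medium, at 37.2% against 31.2%. The 5 type VI genes held 73.4% to 79.0% of summed collagen FPKM in the 4 libraries of batch 2 and 31.2% to 36.3% in batch 1. Type IV genes held 5.11% to 8.95% in batch 2 and 21.7% to 37.2% in batch 1, and fibrillar genes held 3.67% to 4.93% in batch 2 and 15.9% to 30.6% in batch 1. The 2 batches thus did not overlap in any of these 3 shares, which do not depend on the overall scaling of a table. COL6A1 and COL6A2 were the only collagens at 10 FPKM or more in all 8 libraries, while 12 collagens reached 1 FPKM in all 8.

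**Figure D1:**
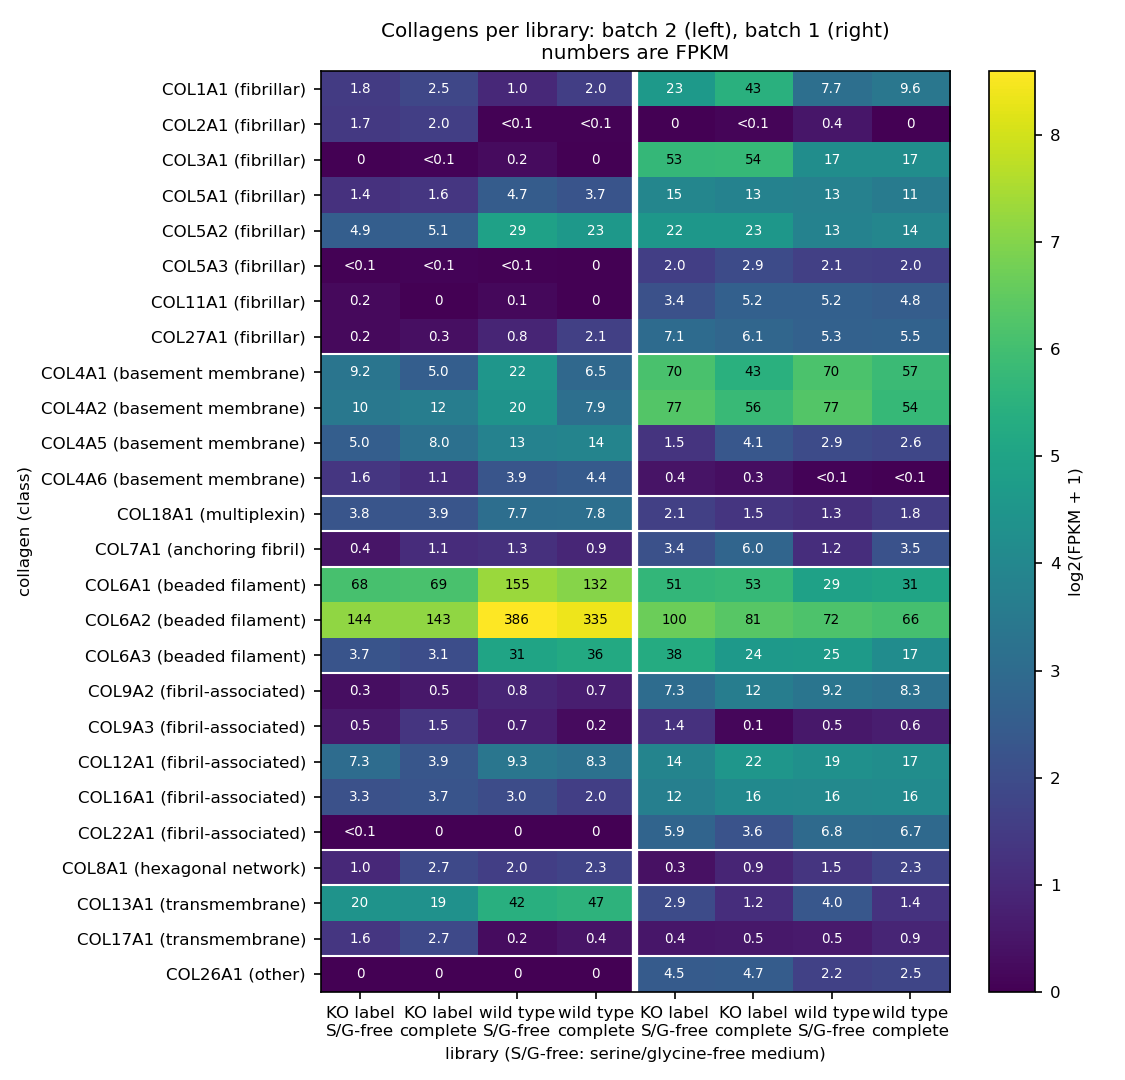
Level of the 26 tested collagens in each library, coloured by log2(FPKM + 1) with FPKM written in each cell. Columns are the 4 libraries of batch 2 and the 4 of batch 1, and rows are grouped by class. COL3A1 is at 17.4 FPKM or more throughout batch 1 and at 0.203 FPKM or less in batch 2, while COL6A2 is above 65 FPKM in every library.

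The summed level of the 44 genes followed the genotype label in opposite directions in the batches. In batch 2 it was 292 and 293 FPKM in cells labelled knockout in serine/glycine-free and complete medium, against 737 and 636 FPKM in wild-type cells. In batch 1 it was 521 and 480 FPKM in cells labelled knockout, against 407 and 357 FPKM in wild-type cells. As a share of all protein-coding FPKM, collagens made up 0.0798% and 0.0847% in cells labelled knockout of batch 2 and 0.195% and 0.179% in wild-type cells. In batch 1 the shares were 0.133% and 0.128% in cells labelled knockout and 0.0983% and 0.0894% in wild-type cells. The groups did not overlap in either batch, and both media gave the same order of genotype labels.

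**Figure D2:**
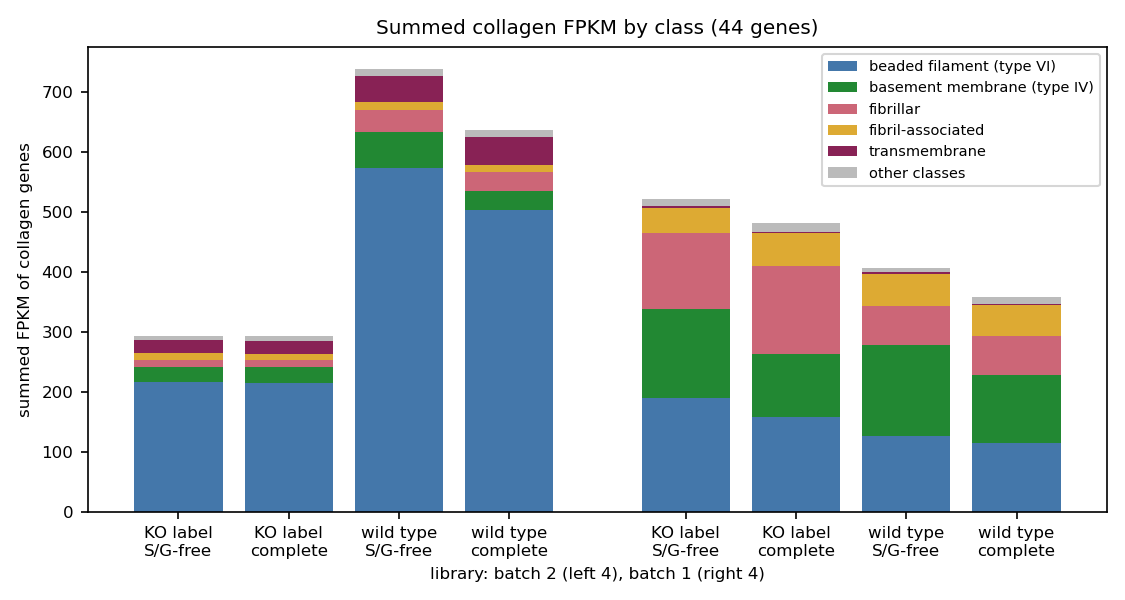
Summed FPKM of the 44 collagen genes in each library, stacked by class, with batch 2 at the left and batch 1 at the right. Bars start at 0. In batch 2 the libraries labelled knockout total 292 and 293 FPKM and the wild-type libraries 737 and 636 FPKM, mostly type VI, and in batch 1 the libraries labelled knockout are the taller pair.

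Since the tables were normalized separately, levels of single genes in the batches are set side by side as a description. Of the 26 tested collagens, 6 had all batch 2 libraries above all batch 1 libraries, where 15.8% of all genes tested did: COL4A5, COL4A6, COL6A1, COL6A2, COL13A1 and COL18A1. In 13 collagens all batch 1 libraries lay above all batch 2 libraries, where 29.8% of all genes tested did, among them 6 of the 8 tested fibrillar genes and COL4A1 and COL4A2. Of the tested collagens, 6 had passed the filter through batch 1 libraries alone and 3 through batch 2 libraries alone, so these had to differ between the batches.

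Within batch 2, cells labelled knockout had less type VI, type V and transmembrane COL13A1 mRNA than wild-type cells. Limma, fitted across all genes with Benjamini-Hochberg adjusted p under 0.05, called 7 of the 26 tested collagens lower, against 5.08% of all genes tested, and 2 higher, against 5.07%. The median log2 difference of the tested collagens was -0.33, beside a median of 0.00 over all genes tested. That collagen median ranged from -0.66 with a pseudocount of 0.1 to -0.0029 with no filter on low values, and from -0.63 to -0.093 when 1 library was left out. Both collagens called higher, COL2A1 and COL17A1, passed the filter only through libraries labelled knockout, where they are high, so nothing is read from that count. Values are on the log2(FPKM + 1) scale, which understates differences of weakly expressed genes, and p-values measure how far the genotype difference varied between the media in these samples, not the spread between repeated cultures of 1 experiment. Leaving out any 1 of the 8 libraries left 1 residual degree of freedom and ended all 9 of these calls, with the directions kept, and with no filter on low values COL6A3, COL5A2 and COL6A2 kept their calls while the other 6 lost them.

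The type VI chains fell together. The chains encoded by COL6A1, COL6A2 and COL6A3 join in 1 heterotrimer that assembles into beaded filaments; the hg19 loci are chromosome 21, 47401650 to 47424964, for COL6A1, chromosome 21, 47518010 to 47552763, for COL6A2 and chromosome 2, 238232645 to 238323018, for COL6A3. In batch 2, COL6A3 had 3.67 and 3.13 FPKM in cells labelled knockout in serine/glycine-free and complete medium, against 31.4 and 36.0 FPKM in wild-type cells. All libraries labelled knockout lay far below both wild-type libraries, and the log2 difference was -2.98 ± 0.14 (SE; limma adjusted p = 0.00501). COL6A2 had 144 and 143 FPKM in cells labelled knockout and 386 and 335 FPKM in wild-type cells, a log2 difference of -1.32 ± 0.09 (limma adjusted p = 0.0102). COL6A1 had 67.9 and 68.5 FPKM in cells labelled knockout and 155 and 132 FPKM in wild-type cells, a log2 difference of -1.06 ± 0.10 (limma adjusted p = 0.0152). In these chains the medium made little difference beside the label, and the groups did not overlap.

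Of the 3 chains, COL6A3 had the largest log2 difference, though the difference between chains was not tested. The ratio of COL6A3 to COL6A1 FPKM was 0.0541 and 0.0457 in cells labelled knockout of batch 2 in serine/glycine-free and complete medium, against 0.202 and 0.274 in wild-type cells. In batch 1 the ratio was 0.742 and 0.444 in cells labelled knockout and 0.846 and 0.544 in wild-type cells, where the groups overlapped. COL6A2 kept a ratio to COL6A1 of 1.52 to 2.54 over all 8 libraries. COL6A5 was listed at 0 throughout, and COL6A6 did not exceed 0.168 FPKM.

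The fibrillar genes called lower in batch 2 were COL5A1 and COL5A2, type V chains, which regulate the diameter of collagen fibrils. A further type V chain, COL5A3, did not exceed 0.0632 FPKM there and was not lower. COL5A2 had 4.92 and 5.07 FPKM in cells labelled knockout in serine/glycine-free and complete medium, against 29.2 and 22.9 FPKM in wild-type cells. The groups were widely apart, with a log2 difference of -2.16 ± 0.14 (SE; limma adjusted p = 0.00893). COL5A1 had 1.36 and 1.60 FPKM in cells labelled knockout and 4.72 and 3.67 FPKM in wild-type cells, a log2 difference of -1.06 ± 0.17 (limma adjusted p = 0.0364). The ratio of COL5A2 to COL5A1 FPKM was 3.63 and 3.18 in cells labelled knockout of batch 2 and 6.20 and 6.24 in wild-type cells, again without overlap.

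The other fibrillar genes were weak in batch 2. COL27A1 had 0.160 and 0.272 FPKM in cells labelled knockout in serine/glycine-free and complete medium and 0.846 and 2.10 FPKM in wild-type cells. These groups did not overlap, and its log2 difference of -0.98 was not called (limma adjusted p = 0.0748). COL2A1, the main chain of cartilage fibrils, had 1.69 and 2.01 FPKM in cells labelled knockout and 0.0383 and 0.0287 FPKM in wild-type cells, a log2 difference of 1.46 ± 0.23 (limma adjusted p = 0.0347). It passed the filter only through the libraries in which it is high, and the call was lost with a pseudocount of 0.1 (limma adjusted p = 0.0881, within a range of 0.00517 to 0.268 over the alternatives). COL1A1, the type I chain, had 1.80 and 2.53 FPKM in cells labelled knockout and 0.973 and 1.99 FPKM in wild-type cells, and these groups overlapped. COL3A1, which accompanies type I collagen in elastic tissues, was listed at 0 and had 0.0613 FPKM in cells labelled knockout in serine/glycine-free and complete medium, and had 0.203 FPKM and was listed at 0 in wild-type cells. COL1A2, the partner of COL1A1 in the usual type I heterotrimer, did not exceed 0.271 FPKM in any of the 8 libraries.

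**Figure D3:**
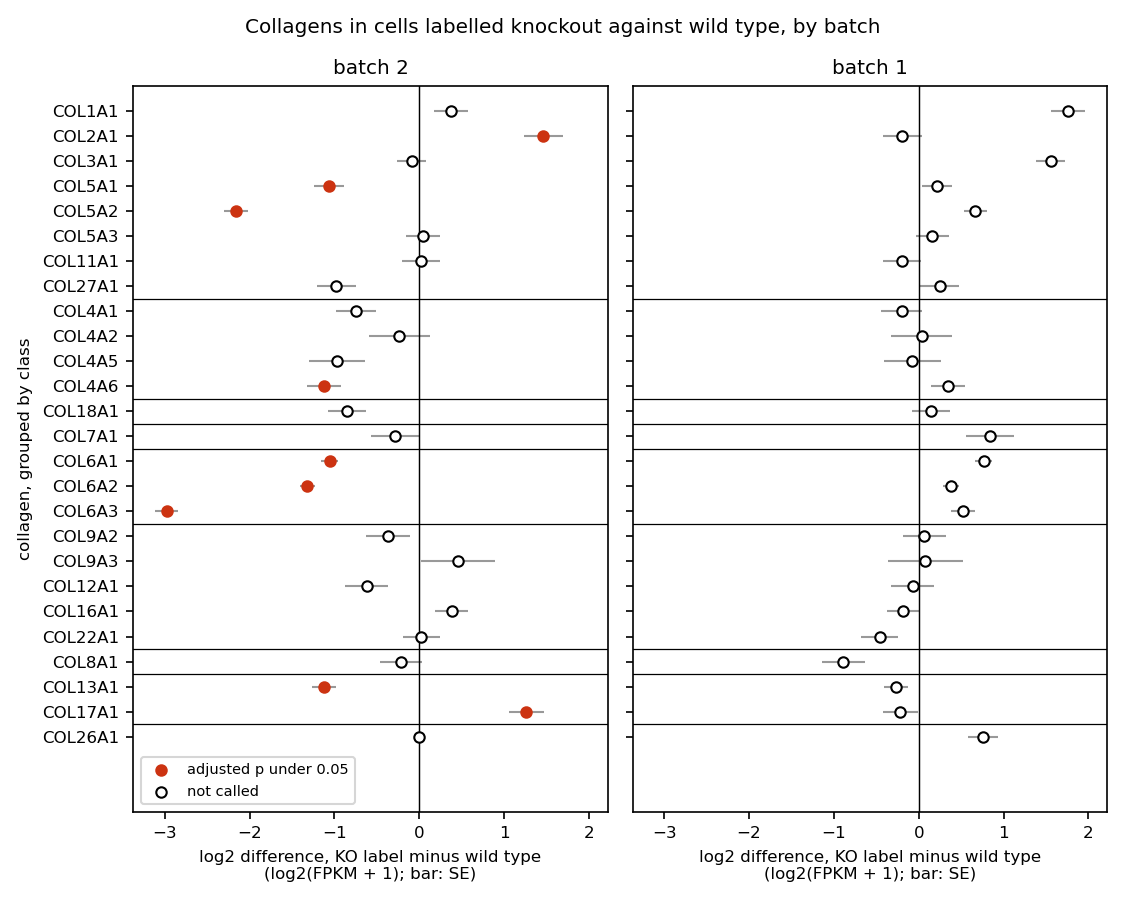
Log2 difference, cells labelled knockout minus wild-type cells, of each tested collagen within batch 2 (left) and batch 1 (right) on the log2(FPKM + 1) scale, with bars for the standard error from limma and filled points for adjusted p under 0.05. COL6A3, COL5A2, COL6A2 and COL6A1 lie left of 0 in batch 2 and right of 0 in batch 1, and no point is filled in batch 1.

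COL4A6 was the one type IV chain called lower in batch 2. COL4A1 and COL4A2 form the common type IV network, and the chains encoded by COL4A5 and COL4A6 occur in specialised basement membranes. COL4A6 had 1.59 and 1.14 FPKM in cells labelled knockout in serine/glycine-free and complete medium, against 3.86 and 4.39 FPKM in wild-type cells, with a log2 difference of -1.12 ± 0.20 (SE; limma adjusted p = 0.0440). That call was lost with a pseudocount of 0.1 (limma adjusted p = 0.0961, within a range of 0.0101 to 0.251 over the alternatives). COL4A5 had 4.98 and 7.96 FPKM in cells labelled knockout and 12.9 and 13.8 FPKM in wild-type cells, without overlap but with no call. COL4A1 had 9.17 and 4.99 FPKM in cells labelled knockout and 22.0 and 6.46 FPKM in wild-type cells, where the groups overlapped across media. COL4A2 had 9.97 and 11.5 FPKM in cells labelled knockout and 20.5 and 7.86 FPKM in wild-type cells, also overlapping. COL4A3 and COL4A4 stayed below 1 FPKM.

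Among the transmembrane collagens, COL13A1 was called lower in batch 2. COL13A1, found at cell-matrix contacts and neuromuscular junctions, had 20.4 and 19.3 FPKM in cells labelled knockout in serine/glycine-free and complete medium, against 42.4 and 46.6 FPKM in wild-type cells, a log2 difference of -1.13 ± 0.14 (SE; limma adjusted p = 0.0245). COL17A1, a component of the hemidesmosomes that anchor epithelial cells, had 1.55 and 2.74 FPKM in cells labelled knockout and 0.220 and 0.360 FPKM in wild-type cells, a log2 difference of 1.26 ± 0.21 (limma adjusted p = 0.0358). The groups did not overlap in either gene. COL17A1 passed the filter through the libraries labelled knockout alone, where it is high, so nothing is read from its call.

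Fibril-associated collagens, which decorate the surface of fibrils, gave no call in batch 2. COL12A1 had 7.27 and 3.88 FPKM in cells labelled knockout in serine/glycine-free and complete medium and 9.33 and 8.26 FPKM in wild-type cells. COL16A1 had 3.34 and 3.72 FPKM in cells labelled knockout and 2.96 and 2.05 FPKM in wild-type cells. COL9A2 had 0.262 and 0.464 FPKM in cells labelled knockout and 0.845 and 0.666 FPKM in wild-type cells. None of these pairs overlapped, and none of the 3 genes was called. Counting the called genes too, libraries labelled knockout lay below both wild-type libraries in 12 tested collagens, where 25.9% of all genes tested did. They lay above both in 4, where 23.3% did. Among these 4, COL2A1 and COL17A1 passed the filter only through libraries labelled knockout, and COL5A3 did not exceed 0.0632 FPKM in batch 2. Nothing is read from that count of 4.

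Within batch 1 the collagens with the smallest p were higher in cells labelled knockout, and none passed the adjusted threshold. Limma called 0 of 26 higher, against 0.0278% of all genes tested, and 0 lower, against 0.106%. At an unadjusted p under 0.05, 8 were higher, against 5.93% of all genes tested, and 1 was lower, against 11%. When protein-coding genes alone were tested, a choice made after seeing the data, COL1A1, COL3A1 and COL6A1 were called higher, with limma adjusted p of 0.0167, 0.0184 and 0.0206, where 0.0765% of protein-coding genes were called in either direction. The median log2 difference was 0.11, beside -0.03 over all genes tested.

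Among the fibrillar genes, COL3A1 and COL1A1 had the smallest p in batch 1. COL3A1 had 52.5 and 53.7 FPKM in cells labelled knockout in serine/glycine-free and complete medium, against 17.4 and 17.4 FPKM in wild-type cells, a log2 difference of 1.56 ± 0.17 (SE; limma adjusted p = 0.0997). COL1A1 had 23.3 and 42.7 FPKM in cells labelled knockout and 7.72 and 9.61 FPKM in wild-type cells, a log2 difference of 1.76 ± 0.20 (limma adjusted p = 0.102). COL5A2 had 22.4 and 22.7 FPKM in cells labelled knockout and 13.2 and 14.5 FPKM in wild-type cells, a log2 difference of 0.67 ± 0.14 (limma adjusted p = 0.165). The groups did not overlap in these genes. COL5A1 had 14.5 and 13.1 FPKM in cells labelled knockout and 12.7 and 10.9 FPKM in wild-type cells, which were closer. COL2A1 was listed at 0 and had 0.0923 FPKM in cells labelled knockout, and had 0.427 FPKM and was listed at 0 in wild-type cells.

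Type VI chains pointed the same way in batch 1. COL6A1 had 51.3 and 53.5 FPKM in cells labelled knockout in serine/glycine-free and complete medium, against 29.5 and 31.4 FPKM in wild-type cells, a log2 difference of 0.76 ± 0.10 (SE; limma adjusted p = 0.105). COL6A2 had 99.7 and 81.1 FPKM in cells labelled knockout and 72.3 and 65.7 FPKM in wild-type cells. COL6A3 had 38.1 and 23.7 FPKM in cells labelled knockout and 24.9 and 17.1 FPKM in wild-type cells. The groups did not overlap in COL6A1 and COL6A2, and overlapped across media in COL6A3. Both libraries labelled knockout lay above both wild-type libraries in 9 tested collagens, where 15% of all genes tested did, and below in 3, where 22.8% did.

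Type IV and most tested fibril-associated genes differed little between the labels in batch 1. COL4A1 had 69.6 and 43.2 FPKM in cells labelled knockout in serine/glycine-free and complete medium and 70.4 and 56.6 FPKM in wild-type cells. COL4A2 had 77.2 and 56.4 FPKM in cells labelled knockout and 77.4 and 53.5 FPKM in wild-type cells. In both genes the medium separated the libraries and the label did not. COL4A5 had 1.46 and 4.08 FPKM in cells labelled knockout and 2.86 and 2.60 FPKM in wild-type cells, and COL4A6 did not exceed 0.377 FPKM. COL12A1 had 13.8 and 21.7 FPKM in cells labelled knockout and 19.1 and 17.5 FPKM in wild-type cells. COL16A1 had 12.2 and 16.0 FPKM in cells labelled knockout and 15.7 and 16.4 FPKM in wild-type cells. All of these groups overlapped, except those of COL4A6. COL9A2 had 7.25 and 11.5 FPKM in cells labelled knockout and 9.15 and 8.27 FPKM in wild-type cells of batch 1. COL22A1, also fibril-associated, had 5.87 and 3.60 FPKM in cells labelled knockout and 6.78 and 6.67 FPKM in wild-type cells. Its groups did not overlap, and its log2 difference of -0.46 was not called (limma adjusted p = 0.384). COL13A1 had 2.86 and 1.16 FPKM in cells labelled knockout and 4.04 and 1.40 FPKM in wild-type cells, where the medium separated the libraries. COL17A1 stayed below 1 FPKM, with 0.437 and 0.469 FPKM in cells labelled knockout and 0.529 and 0.867 FPKM in wild-type cells.

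The difference of the genotype contrast between the batches, batch 2 minus batch 1, was itself tested. Limma called 4 of 26 tested collagens lower, against 0.956% of all genes tested, and 0 higher, against 2.03%. At an unadjusted p under 0.05 the counts were 13 lower, against 11.1%, and 2 higher, against 14%. The 2 higher, COL2A1 and COL17A1, passed the filter only through batch 2 libraries labelled knockout, so nothing is read from that count. Of the 13 lower, COL3A1 and COL26A1 passed through batch 1 libraries alone and COL4A6 through batch 2 libraries alone. Their differences rest mostly on 1 batch. COL6A3 had a log2 difference of -2.98 in batch 2 and 0.52 in batch 1, and their difference was -3.50 ± 0.19 (SE; limma adjusted p = 0.0142). For COL5A2 the log2 differences of -2.16 in batch 2 and 0.67 in batch 1 were apart by -2.83 ± 0.20 (limma adjusted p = 0.0206). COL6A1 and COL6A2 differed by -1.82 ± 0.14 and -1.70 ± 0.13 (limma adjusted p = 0.0214 and 0.0217). All 4 genes were called lower in batch 2 and none was called in batch 1. Leaving out any 1 library ended the calls of the difference, with its directions kept. COL3A1 missed the threshold, at -1.65 ± 0.24 (limma adjusted p = 0.0521), and is near 0 in batch 2. With no filter on low values none of the 4 passed, with adjusted p of 0.0900 to 0.107.

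Averaged over the batches, the genotype label gave no collagen call in either medium. In serine/glycine-free medium limma called 0 of 26, against 0.05% of all genes tested, and 1 had an unadjusted p under 0.05, against 5.86%: COL4A5, with a log2 difference of -0.93 ± 0.34 (limma adjusted p = 0.801). In complete medium limma called 0 of 26, against 0.0333%, and 1 had an unadjusted p under 0.05, against 4.78%: COL1A1, with a log2 difference of 1.14 ± 0.46 (limma adjusted p = 0.857). These contrasts share the libraries described above, and a label difference that varies with batch widens their SE.

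COL4A1 was higher in serine/glycine-free medium in each of the 4 pairs of libraries that share a genotype label and batch, by amounts that did not pass the adjusted test. Limma over the 4 pairs called 0 of 26 tested collagens higher, against 0.417% of all genes tested, and 0 lower, against 0.0611%. At an unadjusted p under 0.05, 1 was higher, against 10.7%, and 2 were lower, against 7.49%. The COL4A1 log2 differences, serine/glycine-free minus complete medium, were 0.76 and 0.68 in cells labelled knockout of batches 2 and 1 and 1.62 and 0.31 in wild-type cells of the same batches. Over the pairs the log2 difference of COL4A1 was 0.84 ± 0.21 (SE; limma adjusted p = 0.142), which among protein-coding genes alone, an alternative chosen after seeing the data, passed the threshold at 0.0487, as did 0.596% of protein-coding genes in either direction. COL4A2 was higher in 3 of the 4 pairs, with 0.45 in cells labelled knockout of batch 1 and 1.28 and 0.52 in wild-type cells of batches 2 and 1, and lower at -0.19 in cells labelled knockout of batch 2.

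COL1A1 was lower in serine/glycine-free medium in each of the 4 pairs, also without a call. Its log2 differences were -0.33 and -0.85 in cells labelled knockout of batches 2 and 1 and -0.60 and -0.28 in wild-type cells, with -0.52 ± 0.14 over the pairs (SE; limma adjusted p = 0.160). COL8A1, a network collagen of vessel walls and of Descemet's membrane in the cornea, had -0.49 ± 0.17 over the pairs (limma adjusted p = 0.234), and its level did not exceed 2.74 FPKM. All 4 differences were below 0 in COL1A1, COL8A1 and COL17A1, which makes 3 of 26 where 11.4% of all genes tested did so, and above 0 in COL4A1 and COL6A2, which makes 2 of 26 where 14.6% did so. Both shares are close to or under those of all genes.

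**Figure D4:**
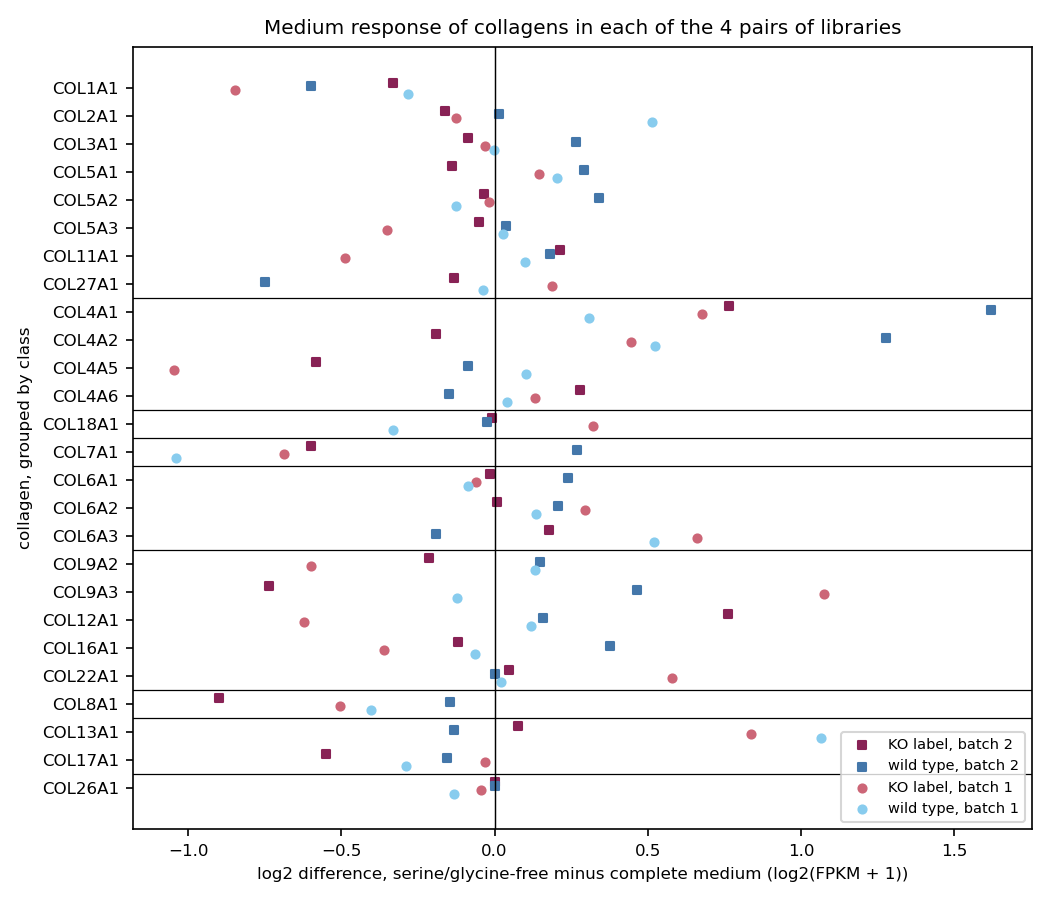
Log2 difference on the log2(FPKM + 1) scale, serine/glycine-free minus complete medium, of each tested collagen in the 4 pairs of libraries with the same genotype label and batch. COL4A1 lies right of 0 in all 4 pairs, between 0.31 and 1.62, COL1A1 lies left of 0 in all 4, and most other collagens scatter on both sides.

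Taken within a genotype label, the medium also gave no call. In cells labelled knockout limma called 0 of 26, against 0.0167% of all genes tested, and 0 had an unadjusted p under 0.05, against 5.59%. The smallest p there was that of COL4A5, with a log2 difference of -0.82 ± 0.34 (SE; limma adjusted p = 0.902). In wild-type cells limma called 0 of 26, against 0.0556%, and 2 had an unadjusted p under 0.05, against 5.64%. They were COL4A2, at 0.90 ± 0.26 (limma adjusted p = 0.742), and COL4A1, at 0.97 ± 0.34 (limma adjusted p = 0.850). The genotype dependence of the medium response, cells labelled knockout minus wild type, called 0 of 26, against 0.0611%, with 0 at an unadjusted p under 0.05, against 1.53%. Its smallest p was that of COL4A2, with log2 differences of 0.13 in cells labelled knockout and 0.90 in wild-type cells that were apart by -0.77 ± 0.37.

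COL4A1 and COL4A2 stand head to head on chromosome 13, where the tables list them under 1 hg19 locus, 110801317 to 111165374, together with 3 other genes. The counting is not stated to use strand, so reads of overlapping or antisense genes there cannot be told apart. After centring on each batch, the log2(FPKM + 1) values of COL4A2 followed those of COL4A1 at r = 0.815 over the 8 libraries, which share their batch tables. The 126 bases between the 2 transcript starts are shown because both genes are read outward from them, COL4A2 along the strand printed and COL4A1 along the other. They are chr13:110307158-110307283 on the + strand of GRCh38.p14 (RefSeq), and capitals mark a CCAAT box, letters CCAAT, at bases 22 to 26 and a GC box, letters GGGCGG, at bases 62 to 67.
COL4A1-COL4A2: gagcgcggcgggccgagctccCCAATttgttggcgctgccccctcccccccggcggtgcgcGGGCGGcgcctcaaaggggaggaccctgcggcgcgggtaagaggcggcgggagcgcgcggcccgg
Searched on both strands, CCAAT stands in 21.1% and GGGCGG in 34.6% of all RefSeq windows of the same 126 bases before a start, and the marked boxes do not overlap. Of the 44 collagens, 32 have windows of 300 bases, some more than 1. GGGCGG stands in at least 1 window of 21 of these 32 genes, whereas 45% of all 35116 windows taken singly hold it, so the count of genes and the share of windows cannot be compared. The CRE letters TGACGTCA, bound by ATF and CREB factors, stand in none of the 32 collagens and in 1.85% of all windows, and the AP-1 letters TGANTCA stand in COL10A1 and in 7.71% of all windows. These are matches of letters, not sites, and the absence of a match covers only these windows. COL1A1, COL3A1, COL5A2 and COL6A1 had no window and were not searched. For the CRE and AP-1 letters too, the count of genes and the share of windows cannot be compared.

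The genes most like COL1A1 and COL4A1 were ranked by Pearson r of the same batch-centred values over the 8 libraries among 8896 protein-coding genes with a mean of 5 FPKM or more. For COL1A1 they were NUFIP2 (r = 0.987), STX16 (0.987), MAPK3 (0.980), MCAM (0.977) and KCNK1 (0.963). COL1A1 had 7.72 to 42.7 FPKM in batch 1 and 0.973 to 2.53 FPKM in batch 2. On the log2(FPKM + 1) scale it varied more in batch 1, so these r values rest mostly on that batch. MAPK3 encodes the kinase ERK1, and MCAM encodes a cell adhesion molecule. For COL4A1 the genes most like it were ENAH (r = 0.992), ARHGEF18 (0.985), BNIP2 (0.984), RRAS2 (0.982) and NDUFAF3 (0.981). COL4A1 had 43.2 to 70.4 FPKM in batch 1 and 4.99 to 22.0 FPKM in batch 2. On the same scale it varied more in batch 2, so its r values rest mostly on that batch. ENAH encodes an actin regulator and RRAS2 a small GTPase. Among the collagens, COL26A1 (0.912) and COL3A1 (0.858) followed COL1A1 most closely. COL26A1 is listed at 0 in batch 2 and COL3A1 does not exceed 0.203 FPKM there, so these r values rest on the 4 libraries of batch 1. COL1A1 and COL4A1 had r = -0.51.

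Genes that fold and hydroxylate collagen went in both directions in batch 2. Of 17 tested members of that list, 2 rose and 4 fell in cells labelled knockout, where 5.07% of all genes tested rose and 5.08% fell. LEPRE1, a prolyl 3-hydroxylase that forms a complex with CRTAP, had 7.55 and 7.27 FPKM in cells labelled knockout in serine/glycine-free and complete medium, against 19.3 and 19.6 FPKM in wild-type cells, with a log2 difference of -1.28 ± 0.10 (SE; limma adjusted p = 0.0123). CRTAP, its partner, had 35.7 and 42.0 FPKM in cells labelled knockout and 82.0 and 82.8 FPKM in wild-type cells, a log2 difference of -1.07 ± 0.11 (limma adjusted p = 0.0169). PLOD1, a lysyl hydroxylase, differed by -0.87 ± 0.10 (limma adjusted p = 0.0193). The libraries labelled knockout lay below both wild-type libraries in these genes. The remaining calls, named after their values were seen, were LEPREL2, SERPINH1 and TMEM38B. LEPREL2, a further prolyl 3-hydroxylase, differed by -1.77 ± 0.20 (limma adjusted p = 0.0196). SERPINH1, which encodes HSP47, differed by 0.65 ± 0.10 (limma adjusted p = 0.0318). TMEM38B, an ion channel of the endoplasmic reticulum, differed by 0.79 ± 0.15 (limma adjusted p = 0.0490). These remaining calls were not computed again under the alternatives. In batch 1 none of the 17 was called, and 5 were higher, against 5.93% of all genes tested, and 2 lower, against 11%, at an unadjusted p under 0.05.

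Of the steps after folding, export and propeptide removal held 1 call in batch 2 and cross-linking held 1, both lower, where 5.08% of all genes tested fell. PCOLCE2, an enhancer of propeptide removal, was the 1 call among 8 tested genes of export and propeptide removal, with a log2 difference of -1.22 ± 0.12 (SE; limma adjusted p = 0.0169). LOXL4, a lysyl oxidase-like enzyme, was the 1 call among 5 cross-linking enzymes. It had 0.506 and 0.914 FPKM in cells labelled knockout in serine/glycine-free and complete medium, against 4.56 and 3.03 FPKM in wild-type cells, a log2 difference of -1.48 ± 0.23 (limma adjusted p = 0.0343). LOXL1, a related enzyme, had 52.0 and 64.0 FPKM in cells labelled knockout and 35.8 and 32.0 FPKM in wild-type cells (limma adjusted p = 0.0552).

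Receptors and partners of collagen held the largest differences of these lists in batch 2. The calls below stand beside 5.07% of all genes tested that rose and 5.08% that fell. Among 7 tested receptors, MRC2, which takes up collagen for degradation, fell to 0.756 and 0.893 FPKM in cells labelled knockout in serine/glycine-free and complete medium, against 4.40 and 7.01 FPKM in wild-type cells. DDR1, a receptor tyrosine kinase for collagen found in epithelia, rose to 41.0 and 52.1 FPKM in cells labelled knockout, against 16.4 and 10.9 FPKM in wild-type cells. Their log2 differences were -1.85 ± 0.19 and 1.71 ± 0.23 (SE; limma adjusted p = 0.0182 and 0.0267), with no overlap of groups. Of 10 tested genes of collagen breakdown, 2 rose, against 5.07% of all genes tested, and none fell, against 5.08%. TIMP1, a metalloproteinase inhibitor, had 592 and 614 FPKM in cells labelled knockout and 173 and 172 FPKM in wild-type cells, and MMP13, a collagenase, had 10.8 and 9.21 FPKM in cells labelled knockout and 3.51 and 1.53 FPKM in wild-type cells. Their log2 differences were 1.80 ± 0.21 and 1.70 ± 0.22 (limma adjusted p = 0.0206 and 0.0255).

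Among 15 basement membrane partners of batch 2, 2 rose, against 5.07% of all genes tested, and 1 fell, against 5.08%. LAMA3, a laminin chain of epithelial basement membranes, had 152 and 98.5 FPKM in cells labelled knockout in serine/glycine-free and complete medium, against 50.1 and 46.4 FPKM in wild-type cells, a log2 difference of 1.33 ± 0.17 (SE; limma adjusted p = 0.0244). LAMA4, another laminin chain, rose by 1.16 ± 0.21 (limma adjusted p = 0.0440), and NID2, a nidogen that links laminin to type IV collagen, fell by 1.12 on the log2 scale (limma adjusted p = 0.0382). Among 8 fibril partners, FBN1, which encodes the microfibril protein fibrillin-1, had 3.18 and 1.45 FPKM in cells labelled knockout and 27.4 and 25.6 FPKM in wild-type cells, a log2 difference of -3.10 ± 0.21 (limma adjusted p = 0.00948). THBS1, a matricellular protein, had 412 and 170 FPKM in cells labelled knockout and 101 and 15.7 FPKM in wild-type cells, a log2 difference of 2.69 ± 0.33 (limma adjusted p = 0.0230). SPARC, a collagen-binding matrix protein, did not exceed 1.66 FPKM in batch 2 and had 343 FPKM or more in batch 1. Leaving out any 1 library ended the batch 2 calls of LEPRE1, CRTAP, PLOD1, PCOLCE2, LOXL4, MRC2, DDR1, TIMP1, MMP13, LAMA3, LAMA4, NID2, FBN1 and THBS1, with the directions kept. With no filter on low values LEPRE1 and FBN1 kept their calls and the other 12 lost them, and LAMA4 and NID2 lost theirs with a pseudocount of 0.1 too. LOXL4 and LAMA4 also lost their calls with no trend in the prior. Of the 70 tested genes on these 7 lists, none was called in batch 1, where 0.0278% of all genes tested were called higher and 0.106% lower.

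**Figure D5:**
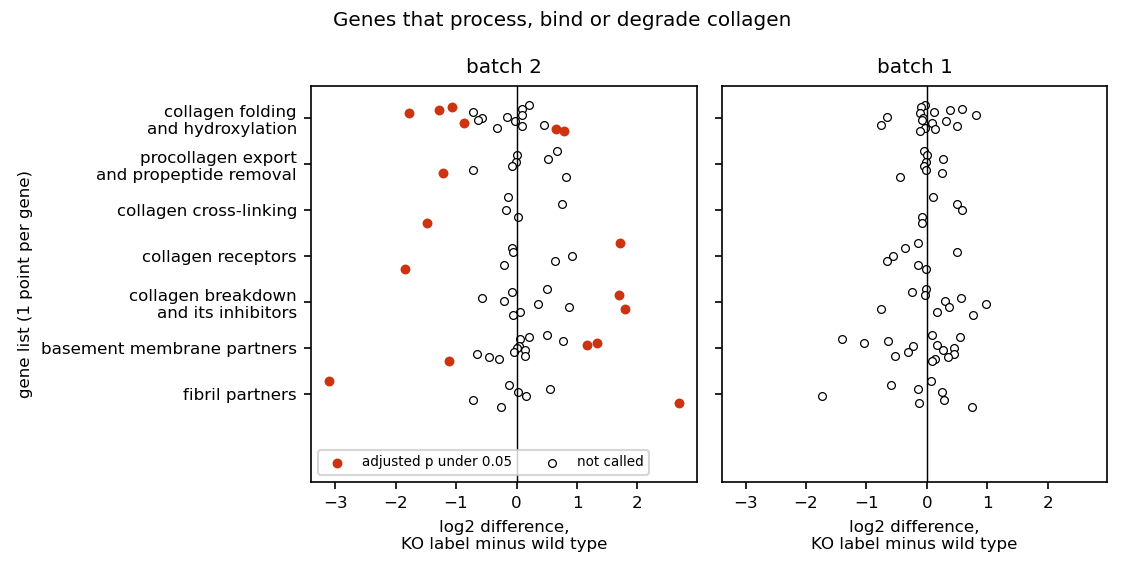
Log2 difference on the log2(FPKM + 1) scale, cells labelled knockout minus wild-type cells, of each tested gene on 7 lists of collagen-related genes, within batch 2 (left) and batch 1 (right). Filled points have an adjusted p under 0.05 by limma. FBN1 at -3.10 and THBS1 at 2.69 are the outermost filled points of batch 2, and batch 1 has none.

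Between the media, 1 of the 70 tested genes of these lists passed the threshold over the 4 pairs. Of all genes tested, 0.417% were higher and 0.0611% lower. LAMB3, the beta chain of laminin-332, had 172 and 105 FPKM in serine/glycine-free and complete medium in cells labelled knockout of batch 2 and 186 and 103 FPKM in wild-type cells of batch 2. In batch 1 it had 41.4 and 17.8 FPKM in cells labelled knockout and 43.2 and 27.1 FPKM in wild-type cells. It was higher in serine/glycine-free medium in all 4 pairs, with a log2 difference of 0.85 ± 0.10 (SE; limma adjusted p = 0.0480), and the call was lost in 13 of the alternatives, among them each that left out 1 library. SERPINH1 had a log2 difference of -0.35 ± 0.08 over the pairs (limma adjusted p = 0.123), and PLOD1 had -0.29 ± 0.07 (limma adjusted p = 0.134). LAMA5, a laminin chain, had -0.53 ± 0.09 (limma adjusted p = 0.0756). The integrin subunits ITGB1 and ITGA2, which form a collagen receptor, had 0.35 ± 0.07 and 1.04 ± 0.38 (limma adjusted p = 0.0941 and 0.241). In batch 1 cells labelled knockout, ITGA2 had 12.9 and 2.00 FPKM in serine/glycine-free and complete medium, and wild-type cells had 16.6 and 4.94 FPKM. In batch 2 the media were closer, at 65.0 and 62.4 FPKM in cells labelled knockout and 45.7 and 36.3 FPKM in wild-type cells.

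The remaining tested collagens stayed below 8 FPKM in every library. COL18A1, a basement membrane collagen whose end fragment is endostatin, had 3.83 and 3.87 FPKM in cells labelled knockout of batch 2 in serine/glycine-free and complete medium and 7.69 and 7.83 FPKM in wild-type cells, and 1.25 to 2.12 FPKM in batch 1. COL27A1, a fibrillar chain of cartilage, did not exceed 2.10 FPKM in batch 2 and lay between 5.31 and 7.09 FPKM in batch 1. COL7A1, the chain of the anchoring fibrils under epithelia, lay between 0.393 and 1.29 FPKM in batch 2 and between 1.17 and 6.04 FPKM in batch 1. COL5A3, COL11A1, COL22A1 and COL26A1 were at most 0.158 FPKM in batch 2, with COL26A1 listed at 0 there, and lay between 2.04 and 6.78 FPKM in batch 1. COL9A3 did not exceed 1.50 FPKM. Of the 18 collagens that were not tested, COL6A5 and COL23A1 were listed at 0 in all 8 libraries, and the highest value of the others was 0.987 FPKM in COL21A1.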

How the data were processed

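Total RNA of 8 hTERT-RPE1 cultures was sequenced, per the labels. Each batch has its own table of FPKM, computed and deposited by the authors. TopHat, Cufflinks, Cuffdiff and hg19 are named in the submitters' processing notes without version or settings. The tables were normalized separately, depth is unknown and an exact 0 can be a failed estimate.

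Genes at 1 FPKM or more in at least 2 libraries were tested on log2(FPKM + 1) with limma 3.58.1 in R 4.3.3 (trended prior, two-sided, Benjamini-Hochberg over 17994 genes, threshold 0.05). Group means were fitted with the batch as a block, medium with a block per genotype label and batch, and genotype contrasts by batch with medium within batch, leaving 3, 3 and 2 residual degrees of freedom. The series text states that equal replicate numbers mark 1 batch of treated cells, so numbers pair the libraries. Deviations of same-numbered libraries from their group means correlated at 0.650 to 0.775. Any difference between the separately normalized tables enters all these deviations, so the correlation is no check of the pairing.

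Values are given for each collagen that reached 10 FPKM in any library or was called, and otherwise mostly by range. Pathway genes are, in each list, the 3 lowest in p for the batch 2 contrast and the 2 lowest over the 4 pairs; not every one is described. Members and lists were chosen with earlier results of these data known. Steps were tested on simulated data. Alternatives varied pseudocount, filter, scaling, prior, block, groups and libraries. Loci are hg19, 1-based. Gene types came from GENCODE 29 and promoter windows from RefSeq.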

Additional observations from a re-analysis of the deposited data

Results flagged for a closer look

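Genotype contrasts that differed between the batches, by the test of the difference itself, were found in 4 collagens. On the log2(FPKM + 1) scale, the contrast of cells labelled knockout against wild type in batch 2 minus that in batch 1 was -3.501 for COL6A3, -2.832 for COL5A2, -1.822 for COL6A1 and -1.696 for COL6A2 (limma adjusted p = 0.0142 to 0.0217). Both libraries labelled knockout lay below both wild-type libraries in batch 2 for all 4 genes, and above both in batch 1 for COL5A2, COL6A1 and COL6A2. Marker sums that moved with the label in batch 2 stand beside the marker results above, and their part was not tested.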

How the results depend on the processing

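Most results were computed again under the alternatives, though not the batch 2 calls of LEPREL2, SERPINH1 and TMEM38B. Testing protein-coding genes alone was chosen after seeing the data. Within batch 2, collagens called higher numbered 1 with a pseudocount of 0.1, 0 with no filter on low values and 0 with a filter of 1 FPKM in 4 libraries, against 2 as reported. Those called lower numbered 3 with no filter and 10 with protein-coding genes alone, against 7. For the difference between the batches, 0 were called lower with no filter and 8 with protein-coding genes alone, against 4, where 2 were also called higher, and the median over collagens was -0.21 with no filter, against -0.81. With protein-coding genes alone, 3 collagens were called higher in batch 1 and 1 over the 4 pairs. The median of the wild-type medium response was 0.040 with no filter, against 0.12. No filter and fewer genes change how many genes are adjusted for. With no filter the collagen medians also take in collagens that stayed below 1 FPKM in every library. COL2A1 and COL17A1 reached 1 FPKM in 2 libraries each, so the filter of 1 FPKM in 4 libraries left them out. Other causes were not tested.

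Leaving out 1 library at a time gave 0 to 0 calls in either direction within batch 2 and in the difference between the batches. The collagen median then ranged from -0.18 to 0.27 for the wild-type medium response, from -0.32 to 0.38 for that of cells labelled knockout, from -0.45 to 0.21 for its genotype dependence, from -0.13 to 0.18 for the label in complete medium, from 0.091 to 0.27 for the label within batch 1 and from -0.63 to -0.093 for the label within batch 2. LOXL2 within batch 2, at -0.18, ranged from -0.40 to 0.041 and reversed without either serine/glycine-free library of that batch. Without the replicate block that pairs the libraries, 0 collagens were called in the comparisons that use it, the same as with the block. The LAMB3 call was lost (limma adjusted p = 1.00). The genotype contrasts within a batch were not computed again without the block. Upper-quartile scaling and an untrended prior ended no collagen call. Depth is unknown, so low values have no stated precision.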
